A study of Mus musculus with 4 samples.

Results

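The 10 genes described here encode the effector molecules of cytotoxic lymphocytes and inhibitors that such cells carry against their own proteases. They were chosen by name, not by their values, out of 31053 mouse genes counted. They comprise the granule proteases Gzma, Gzmb, Gzmc and Gzmk (granzymes), the pore-forming protein Prf1 (perforin), the granule membrane protein Nkg7, the cytokine Ifng (interferon-gamma), the death ligand Fasl, and the serpins Serpinb9 and Serpinb6b. All 10 had counts, and they were followed by day in natural killer (NK) cells and in CD8, CD4 and gamma-delta T cells.

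A cytotoxic lymphocyte stores perforin and granzymes in granules and releases them onto a bound target, where perforin lets granzymes enter and cleave proteins that commit the target to die. Fas ligand on the lymphocyte surface triggers death through the receptor Fas by a separate route, and interferon-gamma acts at a distance on macrophages and on vessel wall cells. NK cells hold this machinery ready for use, CD8 T cells acquire it once activated, and most CD4 and gamma-delta T cells carry little of it, with gamma-delta T cells of barrier tissues and vessels often making interleukin-17 instead.

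The study placed a wire injury in the carotid artery of C57BL/6 mice aged 11 weeks before injury, all male by its methods, and took carotid tissue for single-cell RNA-seq without injury (day 0) and at days 3, 7 and 14 after it. No genotype, drug or diet differed between days. Each day gave 1 library, made from arteries pooled over several mice with thrombosed vessels left out, so a day and its library cannot be told apart, and no test between days was possible. None was made between classes, which were clusters of the same cells. The intervals given are 95% intervals for counting error alone (exact Poisson for a level, exact binomial for a share, exact conditional binomial for a ratio), and the limit given for a count of 0 is that of 3 UMIs in the group's total.

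Levels are unique molecular identifiers (UMIs, each 1 counted RNA molecule) of a gene per 1000000 UMIs of all cells of a group together (CPM). After filtering, 5619 of 6161 barcodes remained (329, 1506, 2693 and 1091 cells at days 0, 3, 7 and 14), with median UMI counts per cell between 4818 and 9320. Of these, 814 were in clusters of T or NK cells (23, 128, 533 and 130 cells). Between libraries 217 barcodes were shared, 152 of them between days 0 and 3 and 64 between days 7 and 14. None of these cells was in the NK, CD8 or gamma-delta T groups below and 1 was in the CD4 group, but 5 of the 7 cycling T cells at day 0 were among them, as were 94 of 234 fibroblast-like cells at day 0 and 128 of 213 at day 3.

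The classes were named from fixed markers. NK cell-like cells had Ncr1 between 579 and 1022 CPM and Eomes between 200 and 314 CPM on days 3 to 14, with Cd8a, Cd8b1 and Cd4 at 0 at days 3 and 14 and at no more than 3.70 CPM at day 7. CD8 T cell-like cells had Cd8b1 at 861 and 797 CPM at days 3 and 7, CD4 T cell-like cells had Cd4 at 287 and 243 CPM at days 7 and 14, and gamma-delta T cell-like cells had Trdc at 1838 and 1931 CPM at days 7 and 14. A rule that a class must hold its defining genes at 100 CPM or more, set after the data were seen, kept other T and NK clusters apart. These clusters made up 91.3%, 14.8%, 30.6% and 37.7% of T and NK cells on days 0, 3, 7 and 14, and their values are given after those of the 4 classes. The NK cells numbered 57, 141 and 21 at days 3, 7 and 14. The CD8 T cells numbered 37, 48 and 11, the CD4 T cells 8, 134 and 23, and the gamma-delta T cells 7, 47 and 26. Ratios were formed only between groups of at least 20 cells, and a ratio was called past 2-fold with 10 CPM added to both levels.

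Because the granzymes are the proteases of this machinery, and Gzmk was held mainly by other lymphocytes than Gzma and Gzmb, the 250 bases upstream of their start sites are shown, from the RefSeq promoter table for GRCm38.p6. All 4 genes lie on the minus strand, Gzma at chr13:113100982-113101231 and Gzmk at chr13:113180966-113181215, Gzmb at chr14:56262335-56262584 and Gzmc at chr14:56234658-56234907 (each window ends where the gene starts). Capitals mark matches, on either strand, to the RUNX motif TGTGGTT in Gzma, Gzmb and Gzmc, to the AP-1 motif TGANTCA in Gzmb and to the T-box motif TCACACC in Gzmk.
Gzma: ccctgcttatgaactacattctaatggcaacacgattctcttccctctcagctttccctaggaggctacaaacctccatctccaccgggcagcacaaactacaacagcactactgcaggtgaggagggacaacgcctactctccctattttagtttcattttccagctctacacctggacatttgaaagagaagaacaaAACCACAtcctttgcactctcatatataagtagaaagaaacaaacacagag
Gzmk: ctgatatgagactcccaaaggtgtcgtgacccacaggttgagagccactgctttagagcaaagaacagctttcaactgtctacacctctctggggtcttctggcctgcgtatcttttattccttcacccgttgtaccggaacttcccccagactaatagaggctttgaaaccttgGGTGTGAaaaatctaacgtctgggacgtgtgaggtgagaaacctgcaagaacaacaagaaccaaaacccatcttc
Gzmb: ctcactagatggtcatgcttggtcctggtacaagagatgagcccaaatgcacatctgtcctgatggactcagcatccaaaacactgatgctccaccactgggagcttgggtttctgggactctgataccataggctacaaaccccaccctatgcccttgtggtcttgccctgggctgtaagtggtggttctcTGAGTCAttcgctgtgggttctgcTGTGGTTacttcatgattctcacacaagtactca
Gzmc: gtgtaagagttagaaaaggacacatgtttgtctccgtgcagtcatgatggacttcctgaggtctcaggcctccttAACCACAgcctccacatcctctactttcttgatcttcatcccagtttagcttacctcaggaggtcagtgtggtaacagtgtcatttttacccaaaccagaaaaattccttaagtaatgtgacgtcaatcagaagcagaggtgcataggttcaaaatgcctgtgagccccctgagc
The RUNX match starts 51 bases before the start site in Gzma, 34 in Gzmb and 175 in Gzmc. In Gzmb the AP-1 match starts 58 bases before the start, and in Gzmk the T-box match starts 75 bases before it. Of 32851 RefSeq promoters of the same length, 4.40% hold the RUNX letters, 6.75% the AP-1 letters, 3.33% the T-box letters and 7.02% the STAT letters TTCNNNGAA. Among the 10 genes, 3 hold the RUNX motif, 1 the AP-1 motif, 2 the T-box motif (Gzmk and Nkg7) and 2 the STAT motif (Ifng and Nkg7), while the windows of Prf1, Fasl, Serpinb9 and Serpinb6b hold none of these letters. A match describes the sequence and is not a measured binding site.

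Over all days, lymphocytes held nearly every UMI of the granule and ligand genes, whereas the serpins were mostly elsewhere. NK cells held 84.8% of the 8971 UMIs of Gzma, a granzyme that cleaves after basic residues, and 84.4% of the 1226 UMIs of Prf1. They held 69.2% of the 1619 UMIs of Gzmb, the granzyme that cleaves after aspartate and activates caspases, with 18.5% in CD8 T cells. Gzmk, a granzyme related to Gzma, lay elsewhere, with 46.8% of its 141 UMIs in CD8 T cells, 21.3% in CD4 T cells and 5.67% in NK cells. Of the 4938 UMIs of Nkg7, a granule protein needed for full release, 48.8% were in NK cells and 21.9% in CD8 T cells.

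Fasl was split as 55.1% in NK cells and 14.0% in CD8 T cells among its 421 UMIs. The inhibitors were broad. Only 22.0% of the 3883 UMIs of Serpinb9, an inhibitor of granzyme B, and 17.0% of the 7233 UMIs of Serpinb6b, another clade B serpin, were in T or NK cells. Fibroblast-like cells held 50.9% and 44.6% of these UMIs, in that order. How reads shared by near-identical genes were counted is not given in the sources used here, so the values of Gzmc and of the serpins, which have close relatives in mouse, are uncertain to that extent.

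**Figure D1:**
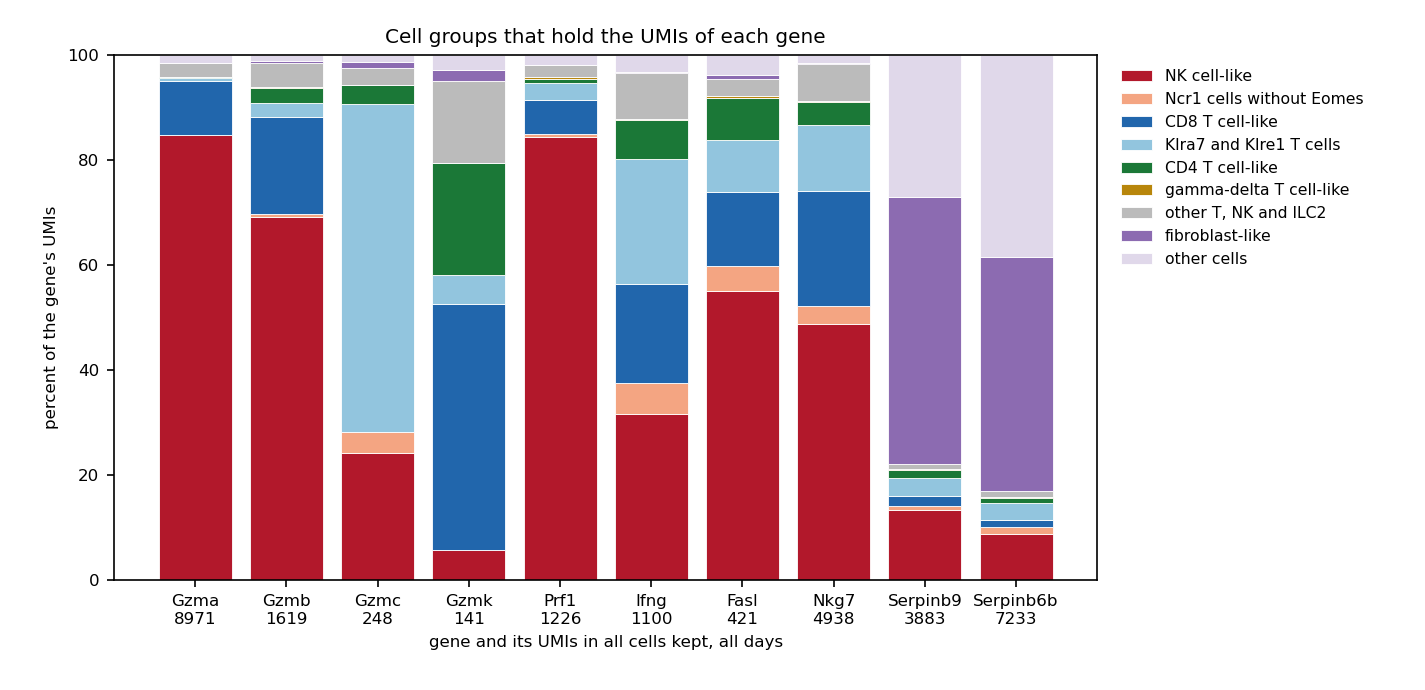
Share of each gene's UMIs (y axis, percent) held by each group of cells (colours) over all 4 libraries, with the UMI total under each gene name. NK cell-like cells fill 84.8% of the Gzma bar and 5.67% of the Gzmk bar, and fibroblast-like cells fill 50.9% of the Serpinb9 bar.

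Before injury, few transcripts of this machinery were captured. The whole day 0 library held 26 UMIs of Nkg7, 16 of Gzma, 5 of Fasl, 3 of Gzmb and 2 each of Prf1 and Ifng, and Gzmc and Gzmk had 0. The only NK cell held 14 of the Nkg7, 3 of the Fasl and both Ifng UMIs. All 16 Gzma UMIs were in cycling T cells whose barcodes also occur in the day 3 library, and 0 remained without those cells. Serpinb9 (181 UMIs) and Serpinb6b (264 UMIs) were counted at day 0 too, with 86.7% and 81.8% of them in fibroblast-like cells. No ratio to day 0 was formed.

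In NK cells the granule genes were high at day 3, lower at day 7 and, in the smaller day 14 group, high again for Gzma and Prf1. On days 3, 7 and 14 Gzma stood at 10353 CPM (9976 to 10742), 4866 CPM (4716 to 5020) and 10277 CPM (9587 to 11004). Gzmb stood at 1894, 644 and 986 CPM, and Prf1 at 1617, 605 and 1261 CPM on the same days. For all 3 genes the day 7 interval lies below both others. With 2 other definitions of NK cells, given below, the day 14 values were lower, at 5132 and 5861 CPM for Gzma and 630 and 679 CPM for Prf1. A lone day 14 cell held 36 of the 79 Gzmb UMIs of that day, and without it Gzmb was 614 CPM, close to day 7.

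Gzmc, a granzyme encoded beside Gzmb, was scarce in NK cells and sat in single cells. It had 3 UMIs at day 3 (10.9 CPM), all in 1 cell, and 57 at day 7 (70.2 CPM), 46 of them in 1 cell (13.7 CPM without it). At day 14 Gzmc had 0 UMIs in NK cells. Gzmk was at 0, 8.62 and 12.5 CPM at days 3, 7 and 14, the last from 1 UMI, against a limit of 10.9 CPM that 0 UMIs allowed at day 3.

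Nkg7 in NK cells was 2912 CPM (2714 to 3121), 1756 CPM (1666 to 1849) and 2135 CPM (1827 to 2480) on these days. Ifng, made by NK cells on activation, was 409, 261 and 262 CPM. Without the cell that held the most, the day 3 value of Ifng was 332 CPM. Fasl was 201 and 180 CPM at days 3 and 7, then 350 CPM (232 to 505). Serpinb9 was 642, 382 and 312 CPM, whereas Serpinb6b stayed between 487 and 566 CPM with overlapping intervals.

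**Figure D2:**
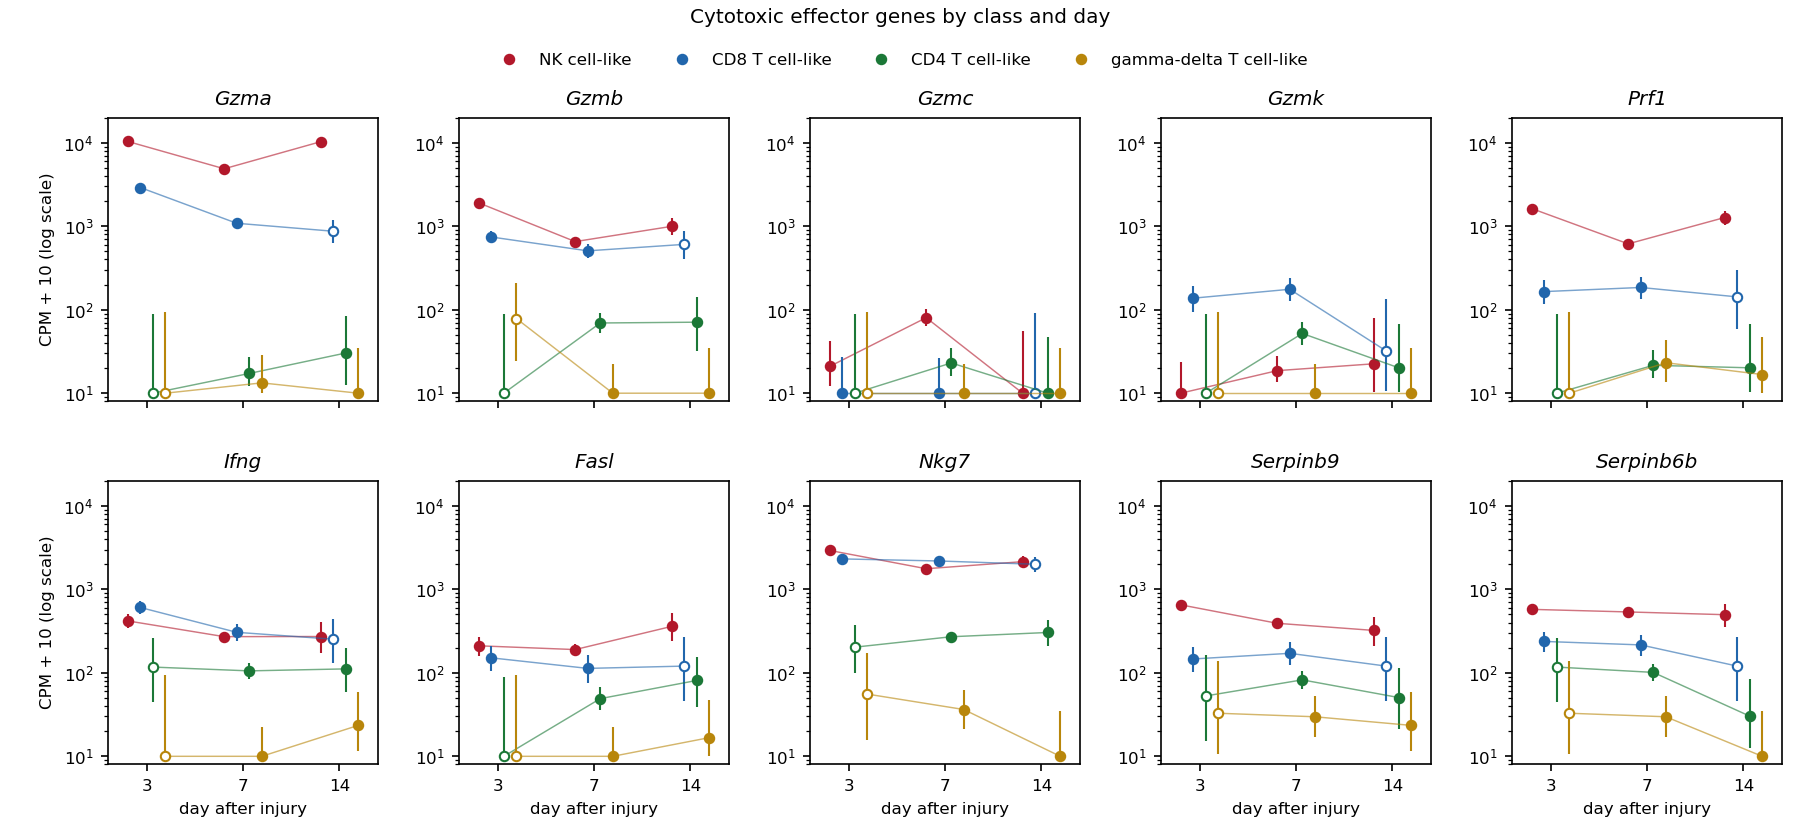
Level of each gene (CPM plus 10, log scale) against day after injury for the NK (red), CD8 (blue), CD4 (green) and gamma-delta (gold) T cell-like groups, with exact Poisson 95% bars and open symbols for groups under 20 cells. In NK cells Gzma stands at 10353, 4866 and 10277 CPM from left to right, while the filled gamma-delta points stay near the bottom of each panel.

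Between days 3 and 7, 3 of the 9 genes with at least 20 UMIs were called lower in NK cells, against 2.59% of 6250 genes, and 1 was called higher, against 3.04%. The ratio of day 7 to day 3 was 0.470 for Gzma (0.448 to 0.493), 0.340 for Gzmb (0.301 to 0.385) and 0.374 for Prf1 (0.328 to 0.426). Gzmc was the gene called higher, at 6.41 (2.09 to 32.0). It passed the minimum through day 7, and that call rests on the lone cell above. Short of 2-fold, Serpinb9 had a ratio of 0.595 (0.493 to 0.720), Nkg7 of 0.603 (0.552 to 0.658) and Ifng of 0.639 (0.506 to 0.811). The ratios of Fasl (0.896, 0.653 to 1.25) and Serpinb6b (0.930, 0.772 to 1.12) had intervals that include 1. The median log2 ratio of the 9 genes was -0.73, beside -0.07 over all genes.

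The NK cells came from 2 clusters, which held 30 and 27 of them at day 3 and 67 and 74 at day 7. At day 14 they held 6 and 15, so most of those cells were of the second cluster, and the day 14 values of NK cells do not come from the same mix of clusters. In the cluster led by Ccl4 and Xcl1, Gzma was 9875 CPM at day 3 and 3975 at day 7, Gzmb 2283 and 681, and Prf1 1656 and 572. The second cluster showed the same order, with Gzma at 10905 and 5879 CPM, Gzmb at 1446 and 603, and Prf1 at 1571 and 642. Ifng was at 647 and 368 CPM in the first cluster and at 134 and 140 CPM in the second. Whether the days differ more in one cluster than in the other was not tested. Markers of fibroblasts, summed over 10 genes, were at 332, 1137 and 1985 CPM in NK cells on days 3, 7 and 14, and those of monocytes and macrophages, over 12 genes, at 274, 722 and 237 CPM. Their part in these ratios was not tested.

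**Figure D3:**
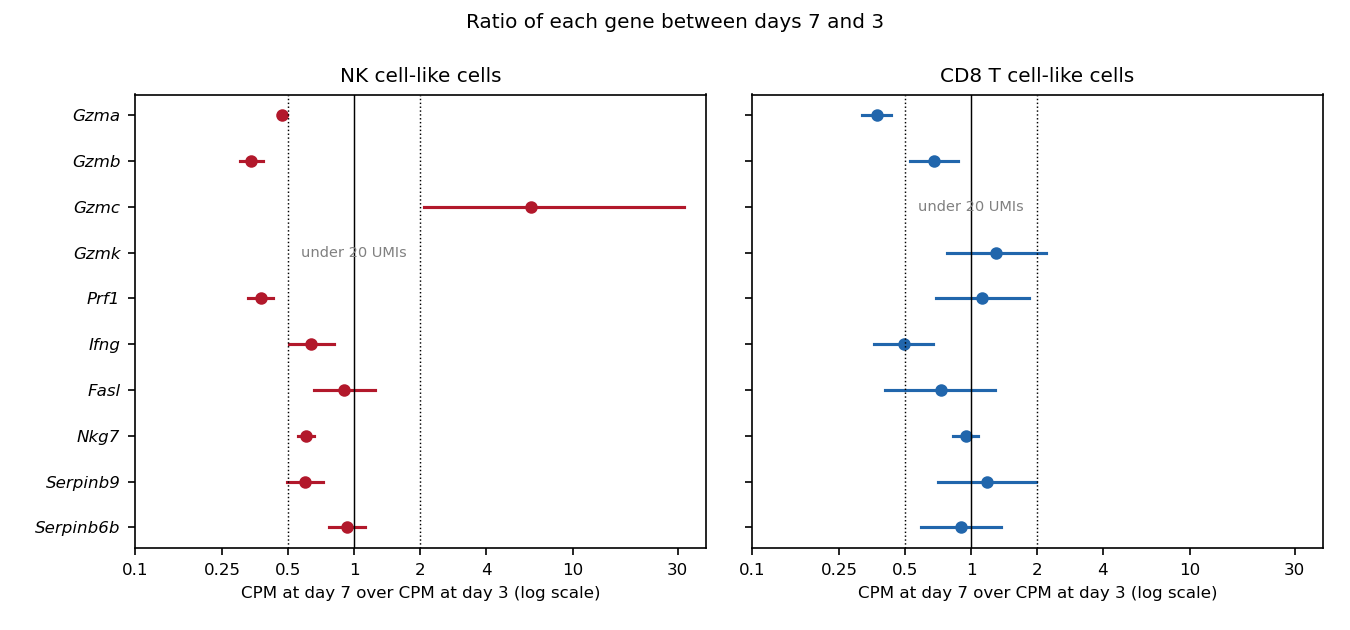
Ratio of CPM at day 7 to CPM at day 3 (x axis, log scale) for each gene in NK cell-like (left) and CD8 T cell-like cells (right), with exact conditional 95% bars for counting error and dotted lines at 2-fold. Gzma lies left of the dotted line in both classes (0.470 and 0.371), and in the right panel Gzmb stands at 0.678 and Prf1 at 1.13.

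Around these genes, 46 of 64 further genes of the cytotoxic pathway had enough UMIs in NK cells at days 3 and 7. Of them 4 were called lower at day 7, beside 2.59% of all genes, and 1 higher, beside 3.04%. Of the 4 chemokines secreted by activated NK cells, 3 were among those called lower. Ccl4 was 11295 CPM at day 3 and 737 at day 7 (ratio 0.0652, 0.0597 to 0.0712), Ccl3 had a ratio of 0.186 and Xcl1, which attracts dendritic cells, of 0.394. Zeb2, a transcription factor of mature cytotoxic cells, had a ratio of 0.411 (0.322 to 0.526). Tnfsf10, the death ligand TRAIL, was called higher from 25 UMIs against 1 (ratio 8.44, 1.38 to 347). None of the 8 genes of granule processing and none of the 8 of granule release was called in either direction. With so few genes this lies near the shares over all genes, and nothing is read from it.

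For Gzma and Prf1 in NK cells as clustered here, day 14 lay nearer to day 3 than to day 7. Relative to day 7, Gzma (ratio 2.11, 1.96 to 2.28) and Prf1 (2.09, 1.67 to 2.59) were called higher, 2 of 9 genes against 5.80% of all genes, and Gzmc was called lower, against 9.02%. Gzmc had 0 UMIs at day 14 and passed the minimum of 20 UMIs through day 7. In this comparison 69.3% of all the genes called had a counting interval that includes 1. Fasl had a ratio of 1.94 (1.25 to 2.93), just under the call. Relative to day 3, the ratio was 0.993 for Gzma, 0.780 for Prf1, 0.521 for Gzmb and 1.74 for Fasl (1.06 to 2.79). Serpinb9 alone was called lower than at day 3 (0.486, 0.306 to 0.742), 1 of 8 genes against 7.13%, and none was called higher, against 3.85%. The alternatives gave between 0 and 5 genes lower than at day 3. Among the pathway genes Ccl4 (5.39), Ccl3 (2.60), Zeb2 (2.15) and the interferon target Cxcl10 (7.52, from 23 and 31 UMIs) were higher at day 14 than at day 7, and Jak2 and Rab27a were called lower from 2 and 1 UMIs at day 14. Compared with day 3, Srgn, the granule proteoglycan serglycin, had a ratio of 0.438 (0.321 to 0.588), Ccl4 of 0.352, Lamp1 of 2.51 and Cxcl10 of 19.7 (6.72 to 78.3), and Jak2 and Prdm1 were called lower from 2 UMIs each.

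The higher values at day 14 depended on which cells were counted as NK cells. With a neighbouring cluster that had Ncr1 but lacked Eomes (1, 22 and 16 cells at days 3, 7 and 14), Gzma was 10272, 4039 and 5132 CPM, and Prf1 was 1604, 509 and 630 CPM. The day 7 values remained below those of day 3, and day 14 was closer to day 7 than to day 3. A gate on single marker UMIs in place of clusters gave 34 NK cells at day 14, with Gzma at 5861 CPM and Prf1 at 679 CPM, against 4231 and 540 CPM at day 7. Ifng was then 410, 249 and 441 CPM at days 3, 7 and 14, highest at day 14 where the clusters had 262 CPM. Neither gene was called higher at day 14 than at day 7 under these definitions.

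CD8 T cells, the main antigen-specific killers, held less Gzma and far less Prf1 than NK cells. Gzma was 2896 CPM (2675 to 3130) and 1075 CPM (943 to 1220) on days 3 and 7, and 2246 CPM on day 3 without the cell that held 159 of its 636 UMIs. Gzmb was 733 and 497 CPM, Prf1 155 and 175 CPM, and Gzmk 127 and 166 CPM. The intervals of Gzma and Gzmb do not overlap between the days, those of Prf1 and Gzmk do, and no CD8 T cell had a UMI of Gzmc.

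Nkg7 in CD8 T cells was 2304 CPM at day 3 and 2176 at day 7, with overlapping intervals. Ifng was 596 CPM (499 to 708) and 296 CPM (229 to 376), and 444 and 213 CPM without the highest cell of each day. Fasl was 141 and 103 CPM, Serpinb9 137 and 161, and Serpinb6b 228 and 206, each with overlapping intervals. In the 11 cells of day 14 Gzma was 861 CPM, but 345 without 1 cell, Gzmb was 596 CPM, but 247 without 1 cell, and Nkg7 was 1987 CPM.

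Of 9 genes compared in CD8 T cells between days 7 and 3, 1 was called lower as the cells were clustered here, Gzma, with a ratio of 0.371 (0.319 to 0.431), beside 3.31% of 3291 genes. Ifng had a ratio of 0.496 (0.363 to 0.671) and missed the call once 10 CPM was added, and Gzmb had a ratio of 0.678 (0.528 to 0.869). Prf1 (1.13), Gzmk (1.30), Fasl (0.730), Nkg7 (0.945), Serpinb9 (1.18) and Serpinb6b (0.905) had intervals that include 1. The median log2 ratio was -0.14 and that of all genes -0.02. This count depended on which cells were taken as CD8 T cells: 3 genes were called lower with a gate on single marker UMIs, 3 without doublet removal, 3 with the 10 genes among the variable genes, 5 at a 10% mitochondrial limit and 5 with the T cells that have Klra7 and Klre1. Gzma was called lower in each of these, and so was Gzmb, which was at 728 and 243 CPM with the gate. Gzmk and Prf1 were then below their day 3 levels, with log2 ratios of -0.43 and -0.29 with the gate. Of 33 pathway genes with enough UMIs, 2 were called lower, Gzmm (0.388), another granzyme, and the interleukin-21 receptor Il21r (0.468), and 2 higher (beside 3.04% of all genes), Eomes (2.59, 1.26 to 5.75), a transcription factor of cytotoxic cells, and Socs1 (5.16, from 21 and 4 UMIs), an inhibitor of cytokine signals. Fibroblast markers were at 360 CPM at day 3 and 1352 at day 7 in these cells, and their part in the ratios was not tested.

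CD4 T cells, most of which help other cells rather than kill, had low levels of every gene. Nkg7 was 261 CPM (224 to 301) and 294 CPM (197 to 423) on days 7 and 14. Ifng was 95.5 CPM on day 7, and its day 14 level rests on 10 UMIs. Gzmb was 59.3 and 60.9 CPM, Gzmk 42.0 and 10.1, Fasl 39.1 and 71.0, and Prf1 11.6 and 10.1. Gzma was 7.24 CPM at day 7 from 5 UMIs in 134 cells. Gzmc had 9 UMIs at day 7, 7 of them in 1 cell, and 0 at day 14. In the 8 cells of day 3, Ifng had 5 UMIs, Nkg7 9, Serpinb6b 5 and Serpinb9 2, and the other 6 genes had 0.

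Between days 7 and 14, 2 of 7 genes in CD4 T cells were called lower, Gzmk (ratio 0.242, 0.00592 to 1.46, from 1 UMI at day 14) and Serpinb6b (0.223, 0.0264 to 0.838, from 2 UMIs in 1 cell), beside 11.4% of all genes. Both had fewer than 20 UMIs at day 14 and passed the minimum through day 7, so this count in part restates that minimum. None was called higher, beside 4.37%. Of all genes called in either direction in this comparison, 61.8% had a counting interval that includes 1, as the interval of Gzmk does. Dendritic cell markers, summed over 12 genes, were at 40.5 CPM in CD4 T cells at day 7, with 4 of them at 0, and at 1106 CPM at day 14, with 7 at 0 (Zbtb46, Xcr1, Clec9a, Fscn1, Itgax, H2-DMb2 and Ccl22). Their part in these ratios was not tested. Among 42 pathway genes, 8 were called lower and 3 higher at day 14. Serpinb1a, an inhibitor of neutrophil proteases, had 70 UMIs at day 7 and 0 at day 14, Lta, a lymphotoxin, had 20 and 0, and the interferon-gamma target Cxcl10 (0.192) was called lower. Stat4 (2.22), Ccl3 (5.84) and Ccl4 (5.34) were called higher.

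Within the CD4 group, the 23 cells with a UMI of Foxp3, the factor that defines regulatory T cells, differed from the 142 cells without one. Gzmb was at 269 CPM in the former (189 to 373, 36 UMIs in 6 cells) and at 15.7 CPM in the latter. Ifng was at 7.48 against 114 CPM, Nkg7 at 29.9 against 305 CPM and Gzmk at 0 against 42.7 CPM. Since Foxp3 is itself detected in few of the cells that express it, the second set may hold such cells as well. Median UMI counts of the sets were 5189 and 4949.

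Gamma-delta T cells, defined here by Trdc and Tcrg-C1 and led by Cd163l1 and by Il17a at 389 CPM, held almost none of these transcripts. At day 7 (47 cells) Gzmb, Gzmc, Gzmk, Ifng and Fasl had 0 UMIs, which allows up to 9.88 CPM each. Gzma had 1 UMI, Prf1 4, Nkg7 8, and Serpinb9 and Serpinb6b 6 each (19.8 CPM). At day 14 (26 cells) Ifng and Serpinb9 had 2 UMIs each, Prf1 and Fasl 1 each, and the other 6 genes 0. In the 7 cells of day 3 Gzmb had 3 UMIs (68.4 CPM, 14.1 to 200). No gene reached 20 UMIs over days 7 and 14 together, so no ratio was formed. Of 30 pathway genes, 4 were called lower at day 14 (beside 4.45% of all genes), among them Zeb2 (0.136), Tnf (0.282) and Bhlhe40 (0.418).

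That result belongs to the cluster and not to every cell with Trdc. A gate on a Cd3 and a Trdc UMI took 79 cells, of which 46 were in the gamma-delta cluster, 19 among T cells with NK receptors, 8 among NK cells and 6 in other clusters. In the gated cells at day 7, Gzma was 300 CPM, Nkg7 376, Ifng 188 and Prf1 44.1. At day 14 the same genes were at 129, 388, 94.9 and 86.3 CPM. Few cells carried these levels: Gzma was seen in 5 of 49 gated cells at day 7 and in 1 of 20 at day 14, and Nkg7 in 4 of those 20. NK cells themselves had Trdc between 98.5 and 127 CPM.

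Within the day 3 library, the ratio of NK to CD8 T cells was largest for Prf1 among the genes with UMIs in both. There, 5 of 9 genes were called higher in NK cells, beside 9.95% of all genes, and 1 lower, beside 4.96%. The ratios were 10.4 for Prf1 (7.36 to 15.3), 4.70 for Serpinb9 (3.18 to 7.18), 3.58 for Gzma (3.28 to 3.90), 2.58 for Gzmb (2.16 to 3.10) and 2.48 for Serpinb6b (1.80 to 3.49). Gzmk, with 0 UMIs in NK cells, was at least 11.6-fold higher in CD8 T cells when 3 UMIs are set in place of the 0, and its exact interval starts at 8.86-fold. Gzmk passed the minimum of UMIs through CD8 T cells, so its call as lower in part restates that minimum. Nkg7 (1.26), Fasl (1.42) and Ifng (0.685, 0.528 to 0.889) lay within 2-fold, Ifng being higher in CD8 T cells.

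By day 7 the lead of NK cells over CD8 T cells was 4.53 for Gzma (3.97 to 5.18) and 3.46 for Prf1 (2.50 to 4.93), and Gzmb was at 1.30 (1.05 to 1.61). With the gate on marker UMIs Gzmb was 602 CPM in NK and 243 CPM in CD8 T cells and was called higher, and 6 of 10 genes were. Serpinb9 (2.37) and Serpinb6b (2.55) were still called higher, as was Gzmc (at least 5.23-fold with 3 UMIs in place of the 0, with an exact interval from 4.11-fold, from 57 UMIs against 0, 46 of them in 1 cell), giving 5 of 10 genes beside 7.79%. Gzmk was called lower (0.0520, 0.0196 to 0.118), beside 2.92%. Gzmc passed the minimum of UMIs through NK cells and Gzmk through CD8 T cells, so the calls of these genes in part restate that minimum. Nkg7 was at 0.807 (0.727 to 0.896), but higher in NK cells under 5 of 12 alternatives, the gate among them. Of the pathway genes with enough UMIs, 14 of 41 at day 3 (beside 9.95% of all genes) and 9 of 46 at day 7 (beside 7.79%) were called higher in NK cells. In each of the 2 libraries 3 were called lower, beside 4.96% and 2.92%. At day 3 the leaders were Xcl1 (801 UMIs against 0), Ccl3 (35.3), Ccl4 (19.4) and the serpin Serpinb9b (33 UMIs against 0), and Gzmm (0.127), Il21r (0.172) and Hopx (0.363) were lower. At day 7 Xcl1 (64.3), Ccl3 (7.90), Serpinb9b (45 UMIs against 0) and Serpina3g (7.36) were higher, and Hopx (0.219) and Il21r (0.358) were among the lower ones.

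Against CD4 T cells at day 7, 9 of 10 genes were called higher in NK cells, beside 5.19% of all genes, with ratios from 2.73 for Ifng (2.07 to 3.66) to 672 for Gzma (288 to 2072). Of these, Gzmc rests on 1 NK cell, and 8 were called without the cell that held the most of each gene. Gzmk was called lower (0.205, 0.0760 to 0.479), beside 4.55%, and passed the minimum through CD4 T cells. Gzma, Prf1 and Gzmc had 5, 8 and 9 UMIs in CD4 T cells at day 7 and passed the minimum through NK cells. CD8 T cells were called higher than CD4 T cells in all 9 genes compared, beside 2.41%. The ratios ran from 2.23 for Serpinb9 to 149 for Gzma (62.8 to 462), with 3.95 for Gzmk (2.36 to 6.66). Gzma and Prf1, with 5 and 8 UMIs in CD4 T cells, passed the minimum through CD8 T cells, so this count in part restates that minimum. Without doublet removal 4 of the 9 were called, at the 10% mitochondrial limit 5 and with the gate 6. At day 14, 8 of 8 genes were called higher in NK than in CD4 T cells, beside 13.7%, Ifng at 2.58 (1.17 to 6.15) being the smallest difference. Of these, 7 had no more than 10 UMIs in CD4 T cells and so passed the minimum through NK cells.

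As clustered, gamma-delta T cells lay below the other classes in the genes that could be compared. At day 7 all 9 genes compared were called higher in NK cells (beside 7.56%) and in CD8 T cells (beside 5.55%), and all 7 compared were called higher in CD4 T cells (beside 4.93%). Gamma-delta T cells held at most 8 UMIs of any of the 10 genes at day 7, so a gene reached the 20 UMIs needed only where it was high in the other class, and these counts largely restate that minimum. Gzma and Prf1 fell short of it against CD4 T cells. Ifng was at least 9.67-fold higher in CD4 than in gamma-delta T cells with 3 UMIs in place of the 0 (exact interval from 7.64-fold), and Nkg7 was 9.89-fold higher (4.91 to 23.2). With the gate both were lower in CD4 T cells, Ifng at 156 against 188 CPM and Nkg7 at 285 against 376 CPM, and 2 of the 7 genes were called higher in CD4 T cells. At day 14, 8 of 8 genes were called higher in NK cells, beside 10.9%, under the same restriction, while 1 gene could be compared with CD4 T cells and none with the 11 CD8 T cells. Ordered by level at day 7, Gzma and Prf1 ran from NK through CD8 to CD4 T cells with separate intervals, and the intervals of CD4 and gamma-delta T cells overlapped for both genes. For Ifng the intervals of NK and CD8 T cells overlapped at day 7, as did those for Fasl at day 3.

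Of the pathway genes, 15 of 51 were called higher (beside 5.19% of all genes) and 7 lower (beside 4.55%) in NK than in CD4 T cells at day 7. In CD8 T cells 10 of 47 were called higher (beside 2.41%) and 3 lower (beside 5.41%) than in CD4 T cells. Xcl1 (99.5), Eomes (54.1), Ccl4 (24.2) and Ccl3 (22.4) led NK over CD4 T cells, and Ccl5 (12.1), Ccl4 (12.2), Eomes (22.4) and Zeb2 (5.37) led CD8 over CD4 T cells. Eomes helped to define the NK class and Ccl5 is among the markers that named the CD8 class, so those differences in part restate the naming, and the pathway genes, unlike the 10, could take part in the clustering. CD4 T cells were higher in Serpinb1a, Tnf, Lta and Hopx than NK cells (0.0365, 0.125, 0.0426 and 0.334). Gamma-delta T cells exceeded NK cells in Serpinb1a (0.0114), Tnf (0.0645) and Serpinb6a (0.192), which were among the 6 pathway genes called lower in NK cells, beside 6.06%.

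Counted by cells, the lower day 7 levels of Gzma, Gzmb and Prf1 in NK cells went with a smaller share of cells in which each was seen. Each cell was thinned to 1000 UMIs, which left 56 and 134 NK cells at days 3 and 7 and left out 1 and 7. Gzma was then seen in 92.9% (82.7 to 98.0) and 74.6% (66.4 to 81.7) of NK cells, against 94.7% and 81.6% before thinning. Prf1 was seen in 69.6% (55.9 to 81.2) and 39.6% (31.2 to 48.4), and Gzmb in 62.5% (48.5 to 75.1) and 29.1% (21.6 to 37.6), with intervals that do not overlap between the days. Ifng was seen in 14.3% and 16.4%, that is in 8 and 22 thinned NK cells. Before thinning it was seen in 20 of 30 and 35 of 67 cells of the NK cluster led by Ccl4 and Xcl1. In the second NK cluster it was seen in 8 of 27 and 25 of 74 cells, so no order of days is read from its share.

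Nkg7 was seen in 92.9% of NK cells at day 3 and 76.1% at day 7, and in 86.1% and 87.2% of CD8 T cells. Gzma was seen in 52.8% (35.5 to 69.6) and 27.7% (15.6 to 42.6) of CD8 T cells, and in 0.746% of CD4 T cells at day 7. Fasl was seen in 33.3% of CD8 and 16.1% of NK cells at day 3, against the order of its CPM, and no order is read from it. In monocyte/macrophage-like cells of all days, which should lack these genes, Gzma, Prf1 and Nkg7 were each seen in 0.0879% of 1138 thinned cells and Gzmb and Ifng in 0%, at a median of 8447 UMIs per cell against 4290 and 5615 in NK cells at days 3 and 7. The CD4 share of Gzma at day 7 rests on 1 cell.

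**Figure D4:**
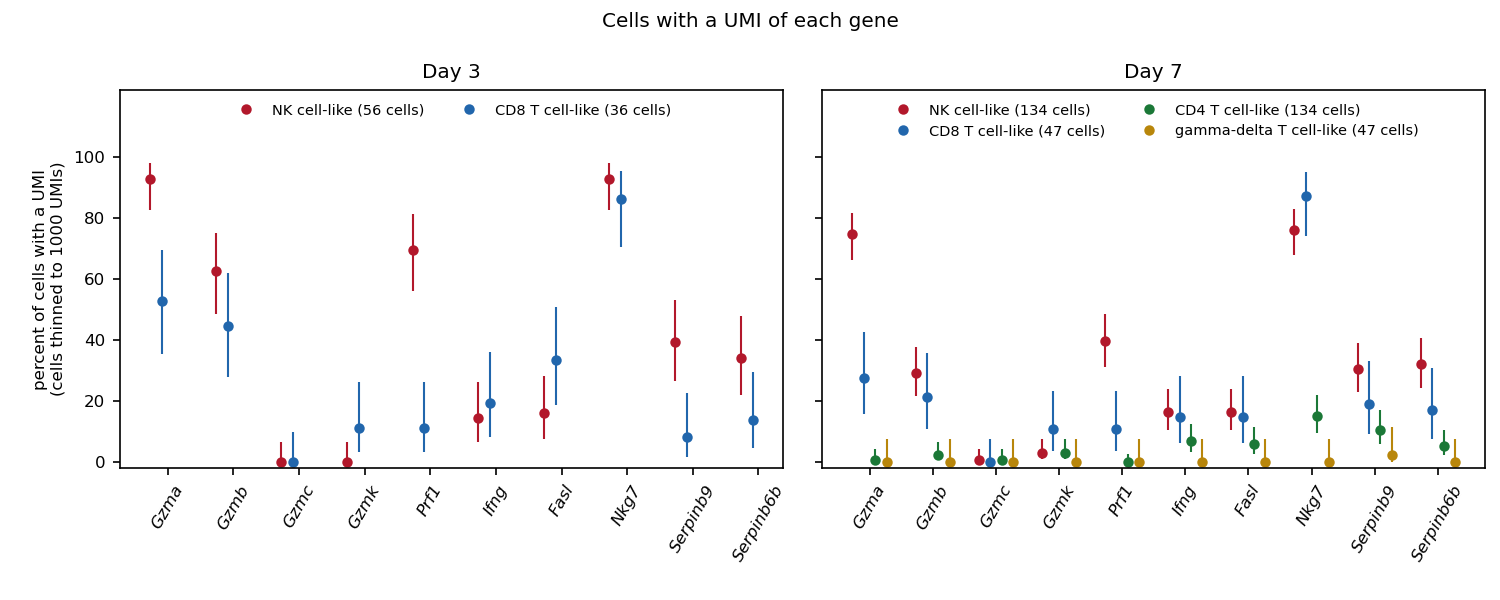
Percent of cells with at least 1 UMI of each gene after thinning every cell to 1000 UMIs, at day 3 (left, NK and CD8 T cell-like cells) and day 7 (right, all 4 classes), with exact binomial 95% bars. Among NK cells Prf1 is at 69.6% at day 3 and 39.6% at day 7, and Gzmb at 62.5% and 29.1%, and the gamma-delta points lie at or near 0.

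Single NK cells also carried fewer of these genes together at day 7. Gzmb and Prf1 were both seen in 48.2% (34.7 to 62.0) of thinned NK cells on day 3 and 16.4% (10.6 to 23.8) on day 7, and in 8.33% (1.75 to 22.5) and 4.26% (0.520 to 14.5) of CD8 T cells, with overlapping intervals. At least 4 of the 10 genes were seen in 66.1% and 38.8% of NK cells and in 11 of 36 and 11 of 47 CD8 T cells. Any granzyme was seen in 92.9% and 79.1% of NK cells, 66.7% (49.0 to 81.4) and 38.3% (24.5 to 53.6) of CD8 T cells, whose intervals overlap, and, at day 7, 6.72% of CD4 T cells and 0% of gamma-delta T cells. None of the 10 genes was seen in 46 of 47 gamma-delta T cells at day 7.

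Cells with Ifng differed in whether they also had a granzyme. At day 3 all 8 NK cells and all 7 CD8 T cells with Ifng had one. At day 7, 3 of 22 such NK cells, 5 of 7 such CD8 T cells and 7 of 9 such CD4 T cells had none. These counts are small, and thinning to 1000 UMIs misses transcripts that a cell holds.

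As clustered, the 4 classes held a smaller share of the Ifng UMIs on each later day. They had 97.3% of the 255 UMIs at day 3, 48.7% of 707 at day 7 and 32.4% of 136 at day 14. NK cells held 43.9%, 30.0% and 15.4% on these days, and CD8 T cells 51.4%, 9.34% and 8.09%. These shares depended on the definition of the classes. The 4 gated classes together held 94.1%, 77.4% and 75.0% of the Ifng UMIs on days 3, 7 and 14. Gated NK cells held 41.2%, 32.0% and 44.9% of them, and NK cells with the Ncr1 cells that lack Eomes 43.9%, 35.1% and 36.8%. As clustered, the NK share of the Gzma UMIs was 81.3%, 86.0% and 94.5%.

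**Figure D5:**
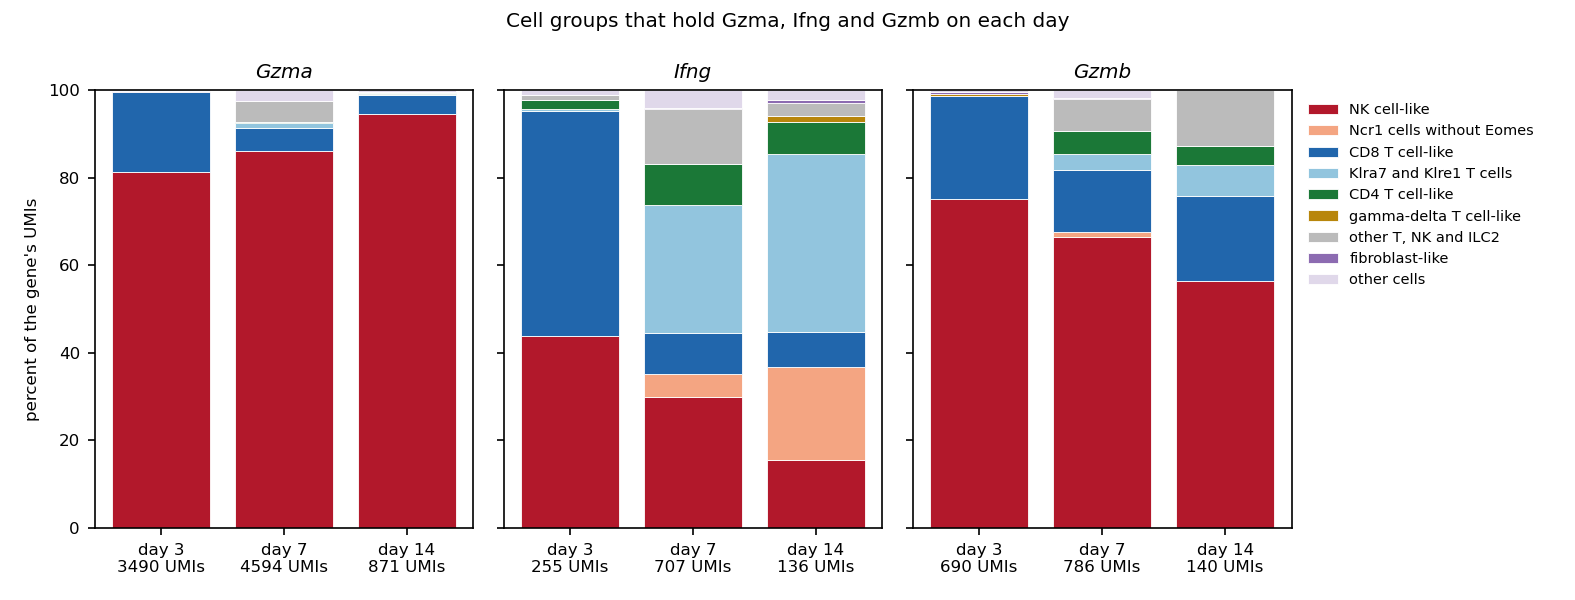
Share of the UMIs of Gzma, Ifng and Gzmb (y axis, percent) in each group of cells (colours) at days 3, 7 and 14, with the UMI total under each bar. The NK part of the Gzma bar is 81.3% at day 3 and 94.5% at day 14, while for Ifng the part of T cells with Klra7 and Klre1 reaches 40.4% at day 14.

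Much of the remaining Ifng lay in T cells with the NK receptor genes Klra7 and Klre1 (2, 2, 97 and 22 cells at days 0, 3, 7 and 14). They were left unnamed because neither of their 2 clusters held all defining genes of a class at 100 CPM or more. Of 123 such cells, 35 had a Cd8 UMI, 25 a Trdc UMI, 4 both and 67 neither. They came from 2 clusters, with Cd8a at 186 CPM in one and 39.3 CPM in the other. In the same order, Cd8b1 was at 91.1 and 42.4 CPM, Trdc at 159 and 218 CPM and Tcrg-C1 at 25.0 and 33.3 CPM. The first cluster thus fell short of the CD8 name by Cd8b1 alone. These clusters held 60 and 37 of the cells at day 7 and 11 each at day 14, so their values at the 2 days come from different mixes. They held 29.3% of the Ifng UMIs at day 7 and 40.4% at day 14. Ifng was 272 CPM (236 to 312) and then 534 CPM (402 to 695) in them, and the former is 207 CPM without a cell of 62445 UMIs whose barcode also occurs in the day 14 library.

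The same T cells had little of the granule contents. At days 7 and 14 Gzma was 73.6 and 19.4 CPM, Gzmb 39.4 and 97.1, and Prf1 44.7 and 48.5, whereas Nkg7 was 646 and 903. Without the cell with the shared barcode, Prf1 was 28.6, Nkg7 558 and Serpinb6b 195 CPM at day 7, the last against 281 with it. Gzmc was 201 CPM at day 7, yet 140 of its 153 UMIs were in 1 cell, and it was 17.3 CPM without that cell. Of 16 thinned cells with Ifng at day 7, 15 had no granzyme. Among all 96 thinned cells of this group at day 7, only 9 had any granzyme, so this lack is not particular to the cells with Ifng.

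Compared within the day 7 library, Ifng in these T cells lay level with NK and CD8 T cells while the granule genes did not. The ratio of NK cells to them was 0.961 for Ifng (0.789 to 1.17), 66.2 for Gzma (50.8 to 87.7), 16.4 for Gzmb and 13.5 for Prf1 (9.56 to 19.8). In all, 6 of 9 genes were called higher in NK cells, beside 4.92%, and Gzmc was called lower, beside 1.9%, through the lone cell above. CD8 T cells were called higher in 6 of 10 genes, beside 5.8%, with 25.2 for Gzmk (9.89 to 82.2), 14.6 for Gzma and 1.09 for Ifng (0.811 to 1.44), and lower in Gzmc, beside 5.54%. Gzmk had fewer than 20 UMIs in these T cells and passed the minimum through CD8 T cells. At day 14, NK cells were called higher in 7 of 8 genes, beside 10.6%, and Ifng was at 0.491 (0.282 to 0.825). Gzma, Gzmb, Prf1, Fasl, Serpinb9 and Serpinb6b each had fewer than 20 UMIs in these T cells at day 14. They passed the minimum through NK cells, so this count largely restates it. Between days 7 and 14 in these T cells, Gzmb was called higher (2.46, 1.07 to 5.18), beside 5.75%, and Gzma (0.264), Gzmc (0.0966) and Serpinb6b (0.449) lower, beside 9.48%, while Ifng was at 1.96 (1.43 to 2.66). The genes called lower had fewer than 20 UMIs at day 14 and passed the minimum through day 7. Without the cell that held the most of each gene, none of these genes was called lower, and the log2 ratios were -0.79 for Gzma, 0.11 for Gzmc and -0.59 for Serpinb6b. Without the cells with a shared barcode, Serpinb6b was not called lower (-0.68) and Ifng was called higher (1.28).

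The cells with Ncr1 but without Eomes had a like profile at days 7 and 14, with Ifng at 216 and 361 CPM, Nkg7 at 653 and 797 and Serpinb6b at 461 and 274. Gzma was 18.0 CPM at day 7, Gzmb 47.9 and Prf1 41.9, and all 3 had 0 UMIs at day 14, which allows up to 37.4 CPM each. They held 5.09% of the Ifng UMIs at day 7 and 21.3% at day 14. The cycling T cells at day 7 had 150 Gzma UMIs, 116 of them in 1 cell.

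The serpins were measured outside lymphocytes as well. Fibroblast-like cells had Serpinb9 at 70.7, 204, 99.2 and 28.2 CPM on days 0, 3, 7 and 14, and Serpinb6b at 97.3, 367, 165 and 28.9 CPM. Without the cells with shared barcodes Serpinb9 was at 50.8, 231, 84.6 and 28.3 CPM and Serpinb6b at 50.8, 395, 155 and 28.9 CPM. Dendritic-like cells had Serpinb9 at 349 CPM and Serpinb6b at 664 CPM over all days, endothelial-like cells 193 and 451, and smooth muscle-like cells 42.9 and 232. NK cells (642 and 566 CPM at day 3) were thus above fibroblast-like cells in both on days 3, 7 and 14. Monocyte/macrophage-like cells had only 5.77 CPM of Serpinb9 and 2.89 of Serpinb6b. Both serpins were highest at day 3 in fibroblast-like cells, whose median UMI count was 2631 that day against 20188 at day 7.

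Over the 9 class-by-day groups of at least 20 cells, the genes most like each of the 10 in log2(CPM + 10) were found among 5187 genes by Pearson's r. This describes 9 points that share libraries and classes, so no test is given. Gzma was most like Klrc2 (0.986), Ctsw (0.985) and Lrrk1 (0.983), and Prf1 like Gse1 (0.995), Ugcg (0.988) and Gramd4 (0.987). Gzmb was most like Ptprc (0.993), Lpin1 (0.982) and Ifitm10 (0.970). Nkg7 was most like Ccl5 (0.986), Itga4 (0.977) and Fam49a (0.973), and Ifng like Ccl5 (0.971), Gm2682 and Lpin1 (both 0.959).

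Fasl was most like Ptprc (0.970), Klrd1 (0.967) and 1700025G04Rik (0.956), Serpinb9 like Il12rb2 (0.992), Gramd4 (0.972) and Plek (0.969), and Serpinb6b like Tapbpl (0.975), Ccdc25 (0.974) and Chkb (0.972). Gzmk and Gzmc had no near neighbour among the 10, the closest being Ifng at 0.549 for Gzmk and Serpinb9 at 0.50 for Gzmc. Gzmk was most like Lag3, Apobec2 (both 0.946) and Cd8a (0.928). Gzmc, whose values rest on single cells, was most like Kit (0.977), Taf7 (0.841) and Cope (0.814). Gzma and Prf1 were each other's nearest among the 10, at 0.970.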

How the data were processed

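Carotid cells were counted by single-cell RNA-seq (3′ 10x chemistry) in 4 libraries, 1 per day. The values the authors deposited are counts of UMIs, not normalized, for each gene in each barcode. The matrix headers name Cell Ranger 3.0.2, the processing notes name a human build for these mouse genes, and no coordinates were taken from the files. The 10 genes and all lists were chosen with earlier results of these data known.

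Barcodes with at least 200 genes and at most 20% mitochondrial UMIs were kept, and the top Scrublet scores (0.8% per 1000 barcodes, 106 in all, against 15 at its own threshold) were removed as doublets. Cells were scaled to 10000 UMIs, log-transformed, reduced to 2000 variable genes without the 10 genes and 30 principal components after regression of the mitochondrial share, joined to 15 neighbours and clustered by Leiden at resolution 1 (scanpy 1.11.5, leidenalg 0.10.2). T and NK cells were clustered again in the same way. A cluster was named from fixed markers, with at least 3 detected.

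UMIs were summed per class and day. With 1 library per day, no test between groups was made. Ratios were formed for genes with at least 20 UMIs over both groups, and shares of cells after thinning to 1000 UMIs. Pathway genes were named if called, at most 4 per direction (a gene within these limits is not reported here), and like genes as the 3 with the highest correlation. Total UMIs per library ranged from 2672722 to 27973418. The fold rule was tested on simulated data. Alternatives covered the class definition, resolution, doublets, the mitochondrial limit, thinning and the CPM added.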

Additional observations from a re-analysis of the deposited data

How the results depend on the processing

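No paired analysis was possible between days because each day has 1 library. Classes, which were clusters of the same cells, were compared within a library without a test. With 1 library a day no replicate could be left out, and the intervals in the report cover counting error only. The median log2 ratio of NK cells at day 7 over day 3 (-0.73) ranged from -0.95 to -0.65 over the alternatives. Gzmb and Prf1 were called lower in each of them, while Gzma (-1.09) lost its call at -0.97 as a mean over cells and at -0.996 without the cell of each day that held most of it. The calls of Gzma (1.08) and Prf1 (1.05) as higher at day 14 than at day 7 were less stable: both were lost with the gate (0.47 and 0.32), at resolution 0.6 (0.28 and 0.26), without doublet removal (0.80 and 0.71), at a 10% mitochondrial limit (0.75 and 0.81), with the Ncr1 cells that lack Eomes (0.34 and 0.30) and as a mean over cells (0.92 and 0.93), and that of Gzma without its top cells (0.92). Of all medians recomputed, 160 of 186 stayed between the medians of the single genes' lower and upper limits. That range is not the counting error of a median. Of the levels 708 of 880 stayed within counting error, as did 1207 of 1525 single log2 ratios. Among these log2 ratios 58 changed sign, 6 of them ratios called past 2-fold. These totals include the alternative without shared barcodes, which cannot change groups that hold no such cell. That alternative gave 22 of the medians, 106 of the levels and 167 of the log2 ratios that stayed. Groups at day 14 were small, and with 21 NK cells a few cells set a value.

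The median of NK cells at day 14 over day 3 (-0.40) was -0.89 with the marker gate, -1.06 at resolution 0.6, -0.82 without doublet removal and -0.99 with the Ncr1 cells that lack Eomes. Day 14 over day 7 (0.28) was 0.012, -0.13 and -0.10 with the gate, at resolution 0.6 and with those Ncr1 cells. For CD8 T cells the median of day 7 over day 3 (-0.14) was -0.75 with the gate, -1.05 at a 10% mitochondrial limit, -0.86 with the 10 genes among the variable genes and -1.16 with the Klra7 and Klre1 T cells. The median of CD8 over CD4 T cells at day 7 (1.76) was 0.95 without doublet removal and 1.03 at the 10% limit. Against gamma-delta T cells the gate lowered the day 7 medians of NK (4.73 to 2.58), CD8 (4.14 to 1.25) and CD4 T cells (2.38 to 0.52) and the day 14 median of NK cells (5.94 to 2.70). At resolution 1.5 the CD8 median was 4.25. The day 14 value of CD4 T cells (4.93) rests on 1 gene, Nkg7. This gene had 0 UMIs in gamma-delta T cells and passed the minimum through CD4 T cells. Its value was 5.37 at resolution 1.5, 5.02 as a mean over cells and 3.87 with no CPM added.

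The called ratios that changed sign were of Gzmc, Ifng and Nkg7. Gzmc in Klra7 and Klre1 T cells at day 14 over day 7 (-2.84) was 0.11 without its top cell, which also took NK over those T cells at day 7 from -1.39 to 1.56. Gzmc in NK over CD8 T cells at day 7 (3.00) was -1.55 with the 10 genes among the variable genes and -1.04 with the Klra7 and Klre1 T cells counted as CD8. CD4 over gamma-delta T cells at day 7 was -0.26 for Ifng (3.40) and -0.39 for Nkg7 (2.90) with the gate. Of the 52 sign changes in ratios that were not called, 10 were in ratios whose interval excluded 0 (Nkg7 in NK over CD8 T cells at day 7, and Nkg7 and Gzmb in NK cells at day 14 over day 7). By count, the ratio that changed sign most often was Prf1 in CD8 T cells at day 7 over day 3, under 6 of 11 alternatives. As a share of the alternatives run, it was Serpinb6b in CD8 over Klra7 and Klre1 T cells at day 7, under 3 of 4. The first pair of Gzmc ratios above changed sign only without the top cell, and what lay behind the other changes was not tested. The alternatives that join these clusters, drop a top cell or drop shared barcodes were added after seeing the data. CD4 T cells at day 14 fell under 20 cells with the gate and at the 10% limit, and no CD4 class was named with the 10 genes among the variable genes, so those values were not formed.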
